A study of Mus musculus with 8 samples.

Results

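The regions described here were open in granulosa cells before the ovulatory hormone signal, were missing from both lists of wild-type F1 cells that had received that signal, and were present in both lists of Pgr knockout cells collected after it. They were selected on measured peak calls. The intervals of 8 peak lists were merged wherever they shared 1 bp or more, and a region was a member if both PMSG lists and both KO lists held a peak in it and neither hCG list did. The rule found 1233 members among 98245 merged regions (1.26%).

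The PMSG libraries came from wild-type CBA x C57BL/6 F1 mice, 21 days old, collected 46 h after 5 IU of eCG (equine chorionic gonadotropin, also known as PMSG). The hCG libraries came from mice of the same cross and age that were given 5 IU of hCG (human chorionic gonadotropin) at 46 h and collected 6 h later. The KO and WT libraries came from mice of the strain labelled C.129S7(B6)-Pgrtm1Bwo/OmcJ, with the Pgr knockout or wild-type genotype, at the same age. The series' design text places them after hCG. They are listed with the doses and intervals of the hCG libraries: 5 IU per injection, hCG at 46 h and collection 6 h later. Every group had 2 libraries, each a pool of 2 to 3 mice, and all mice of all groups had received eCG. The time tags of the PMSG libraries (6 h) and of the hCG libraries (0 h) contradict their titles and source names, and the titles were followed. Source names call all KO and WT cells pre-ovulatory, while their own time tag is 6 h. The name alone does not tell whether cells were taken before hCG, or after it but before ovulation. The KO and WT libraries thus differ from the PMSG and hCG libraries in mouse strain, in the experiment, and in a peak-name prefix that mentions filtering, and these cannot be told apart.

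Granulosa cells line the ovarian follicle and feed and instruct the oocyte. Before the surge of luteinising hormone (LH) they divide and make oestradiol under follicle-stimulating hormone, whose action eCG imitates. The LH surge, imitated by hCG, ends that programme and starts ovulation and luteinisation, and within hours it induces Pgr, the gene of the progesterone receptor, a nuclear receptor without which follicles do not rupture. ATAC-seq marks open chromatin by letting the transposase Tn5 insert adapters where DNA is exposed, so a peak is a stretch of DNA that was cut more often than its surroundings.

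Few members lay at the start of a gene. Annotated start sites, from a RefSeq table of 32619 windows of 300 bases on GRCm38.p6 (the assembly behind mm10), fell inside 16 of the 1233 members (1.30%, Wilson 95% interval 0.8003 to 2.10), against 11.7% of all merged regions (11.5 to 11.9). The share was also low, at 0.816% (0.644 to 1.03), over the 8338 regions that both PMSG and no hCG lists held, to which the members belong. Of the 16 members, 9 held the start of a protein-coding gene. The windows of 5 genes, chosen after their values were seen, are printed: the 4 protein-coding genes with the most bases of their window in a member (243 to 300), and 1 gene whose member WT replicate 2 lacked. Serpina5 encodes a serine protease inhibitor, Popdc2 a membrane protein that binds cyclic AMP, Sgcd a subunit of the sarcoglycan complex, and Rapgef5 an activator of Rap GTPases, while 1810064F22Rik is a gene that the table does not class as protein-coding. Each window holds 250 bases before the start and 50 from it, on the gene's strand. Capitals mark matches, on either strand, to 13 short motifs.
Serpina5, chr12:104100863-104101162, plus strand: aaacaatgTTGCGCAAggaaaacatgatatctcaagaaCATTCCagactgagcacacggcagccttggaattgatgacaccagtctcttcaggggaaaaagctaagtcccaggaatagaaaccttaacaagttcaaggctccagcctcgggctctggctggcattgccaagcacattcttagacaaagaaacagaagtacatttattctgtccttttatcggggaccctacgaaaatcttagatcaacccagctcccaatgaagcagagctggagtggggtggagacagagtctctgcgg
Popdc2, chr16:38361940-38362239, plus strand: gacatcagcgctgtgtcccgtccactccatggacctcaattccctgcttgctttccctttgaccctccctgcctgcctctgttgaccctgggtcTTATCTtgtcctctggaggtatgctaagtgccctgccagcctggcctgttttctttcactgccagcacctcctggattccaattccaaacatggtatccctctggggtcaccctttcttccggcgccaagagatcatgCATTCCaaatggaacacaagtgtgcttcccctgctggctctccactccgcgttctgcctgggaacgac
Sgcd, chr11:47379276-47379575, minus strand: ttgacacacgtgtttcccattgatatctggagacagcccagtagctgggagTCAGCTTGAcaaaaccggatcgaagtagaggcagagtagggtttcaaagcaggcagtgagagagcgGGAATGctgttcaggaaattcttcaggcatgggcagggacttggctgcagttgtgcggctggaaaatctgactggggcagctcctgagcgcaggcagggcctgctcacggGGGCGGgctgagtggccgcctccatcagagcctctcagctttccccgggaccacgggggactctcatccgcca
Rapgef5, chr12:117533678-117533977, plus strand: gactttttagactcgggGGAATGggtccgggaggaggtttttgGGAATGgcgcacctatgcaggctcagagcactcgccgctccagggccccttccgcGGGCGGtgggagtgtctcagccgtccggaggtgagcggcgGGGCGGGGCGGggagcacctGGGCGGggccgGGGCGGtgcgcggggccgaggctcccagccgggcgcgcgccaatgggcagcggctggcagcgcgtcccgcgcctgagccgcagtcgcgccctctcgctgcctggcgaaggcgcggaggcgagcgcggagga
1810064F22Rik, chr9:22213811-22214110, minus strand: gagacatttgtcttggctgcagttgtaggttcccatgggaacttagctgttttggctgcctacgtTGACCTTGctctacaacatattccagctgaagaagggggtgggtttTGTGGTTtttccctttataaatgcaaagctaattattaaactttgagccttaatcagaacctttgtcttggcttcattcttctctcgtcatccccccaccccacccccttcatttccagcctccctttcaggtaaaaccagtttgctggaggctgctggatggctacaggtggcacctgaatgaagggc

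The motifs searched were GTAAACA (forkhead factors), CAAGGTCA (NR5A receptors and their relatives), AGATAA (factors of the GATA family), TGANTCA (AP-1), TGTGGTT (RUNX), TGACGTCA (the cyclic AMP response element), TTGCNNAA (C/EBP), GGAATG (TEAD), ACANNNTGT (the core of the palindrome bound by PGR and its relatives), TCANNNTGA (the core of the oestrogen receptor palindrome), CTTTGAT (TCF/LEF), GGGCGG (the GC box) and GGNGGCAG (CTCF). The window of Serpina5 held 1 C/EBP and 1 TEAD match, and that of Popdc2 1 GATA and 1 TEAD match. The window of Sgcd held 1 match each to the TEAD, oestrogen receptor and GC box motifs. The window of Rapgef5 held 2 TEAD and 5 GC box matches, of which 1 pair of GC boxes shares a base, and both TEAD matches lie before the first base of the member. The window of 1810064F22Rik held 1 NR5A and 1 RUNX match. None of the 5 windows held the PGR palindrome core. Over all 32619 windows the share with a match was 14.6% for TEAD, 11.2% for GATA, 10.9% for C/EBP, 35.9% for the GC box, 7.63% for the oestrogen receptor core, 6.89% for the PGR core, 5.29% for RUNX and 1.53% for NR5A. Over the 12334 windows that lay whole in a merged region it was 10.9% for TEAD, 4.82% for GATA, 7.23% for C/EBP, 69.9% for the GC box, 3.76% for the oestrogen receptor core, 3.50% for the PGR core, 3.04% for RUNX and 1.01% for NR5A. These matches describe letters in the windows, and no binding was measured.

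WT replicate 1 held all 5 of these members, and WT replicate 2 held all of them but that at 1810064F22Rik. At Rapgef5 the peak summits lay near the start: 1 base before it in PMSG replicate 1, 17 before it in PMSG replicate 2, 34 after it in KO replicate 1 and 2 before it in KO replicate 2. At Serpina5 the summits lay 201 and 159 bases before the start in the PMSG libraries, and 205 and 214 bases before it in the KO libraries. The fold enrichment of the Serpina5 peak over background, as given in the authors' lists, was 9.53 and 8.87 in PMSG, 6.85 and 5.84 in KO, and 7.54 and 11.1 in WT (replicates 1 and 2). Fold values describe a peak within its own list and are not levels that can be compared between lists.

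One member held a microRNA. How many microRNA hairpins other merged regions overlapped is not given. The count below therefore cannot be read as particular to the members. Of 1005 hairpins in the RefSeq table, 1 overlapped a member: Mir149, on the plus strand at chr1:92850378-92850443, inside the gene of the cell-surface proteoglycan Gpc1 and inside the member at chr1:92850082-92850472. Its mature strands are printed because the peak covers the DNA they are transcribed from, with the seed (bases 2 to 8) in capitals.
mmu-miR-149-5p: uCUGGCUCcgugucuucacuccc
mmu-miR-149-3p: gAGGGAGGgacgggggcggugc
The authors' fold at this member was 5.04 and 5.93 in the PMSG libraries, 4.16 and 4.80 in KO, and 6.17 and 5.72 in WT, so all 6 of these libraries had a peak there and neither hCG library did.

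The peak lists held between 55654 (KO replicate 2) and 84313 (WT replicate 2) intervals on chromosomes 1 to 19 and X, and covered between 29.8 and 43.9 Mb. The lists give no read numbers, so the depth behind them is unknown, and a missing peak can mean less sensitivity rather than closed chromatin. WT lists were the longest, with 80137 and 84313 intervals against 58851 and 55654 in KO. Of 8 granulosa markers, Foxl2, Fshr, Amh, Inha, Esr2 and Hsd17b1 had a peak within 1 kb of a gene end in all 8 lists, Nr5a2 had one in WT replicate 1 alone and Cyp19a1 had none. Of 4 endothelial markers, Cdh5 and Kdr had such a peak in all 8 lists, and Pecam1 and Tek in none. Of 5 theca-associated genes, Ptch1, Gli1 and Hhip had one in all 8 lists, Cyp17a1 in PMSG replicate 2 and WT replicate 1, and Insl3 in none. Of 4 oocyte markers, Gdf9 had one in all 8 lists, Zp3 in hCG replicate 2 and KO replicate 1, and Bmp15 and Ddx4 in none. Of 4 immune markers, Cd68 had one in both hCG lists and none of the 4 had one in the other lists. An open gene end is not a measure of expression, and the part of other cell types in the members was not tested.

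Most of what was open in both PMSG and both KO libraries was open after hCG as well. The PMSG and KO lists shared 39751 regions, of which both hCG lists held 37272 and 1 hCG list held 1246, which left the 1233 members. Of the 1246, 953 were held by hCG replicate 1 alone and 293 by hCG replicate 2 alone, so that leaving out hCG replicate 1 raised the number of members to 2186. Seen from the other side, 8338 regions were held by both PMSG libraries and by neither hCG library (PMSG-only regions below), and the members were 14.8% of these. Both KO libraries lacked 4993 of the 8338. KO replicate 1 alone held 498 and KO replicate 2 alone held 1614, and leaving out KO replicate 1 raised the number of members to 2847. For comparison, both KO libraries held 5891 of the 14212 regions that both hCG and no PMSG libraries held (41.5%).

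The WT libraries, whose peak calls the rule did not use, held nearly all members. Their intervals did enter the merge that set the extents of the regions. WT replicate 1 held 1197 of 1233 (97.1%, Wilson 95% interval 96.0 to 97.9) and WT replicate 2 held 1125 (91.2%, 89.5 to 92.7). Both WT lists held 1103 members, replicate 1 alone held 94, replicate 2 alone held 22, and neither held 14 (1.14%, 0.678 to 1.90). So 1219 of the 1233 regions that stayed in the KO lists were also in a list of wild-type cells of the same strain after hCG. Over all 8338 PMSG-only regions, members included, the shares were 76.2% and 45.6%. Among the 2112 in 1 KO list they were 92.7% (91.5 to 93.7) and 65.4% (63.3 to 67.4). Among the 4993 PMSG-only regions that both KO lists lacked, WT replicate 1 held 64.1% (62.7 to 65.4) and WT replicate 2 25.9% (24.7 to 27.1). Intervals over regions cover counting error only, since regions of 1 library are not replicates. With every WT list shortened to its 55654 peaks of highest fold, the length of the shortest list, WT replicate 1 held 835 of the 1233 members (67.7%) and WT replicate 2 held 490 (39.7%). The same cut left 1185 (96.1%) and 1173 (95.1%) members in the PMSG lists and 1044 (84.7%) in KO replicate 1. KO replicate 2, the shortest list, kept all 1233.

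**Figure D1:**
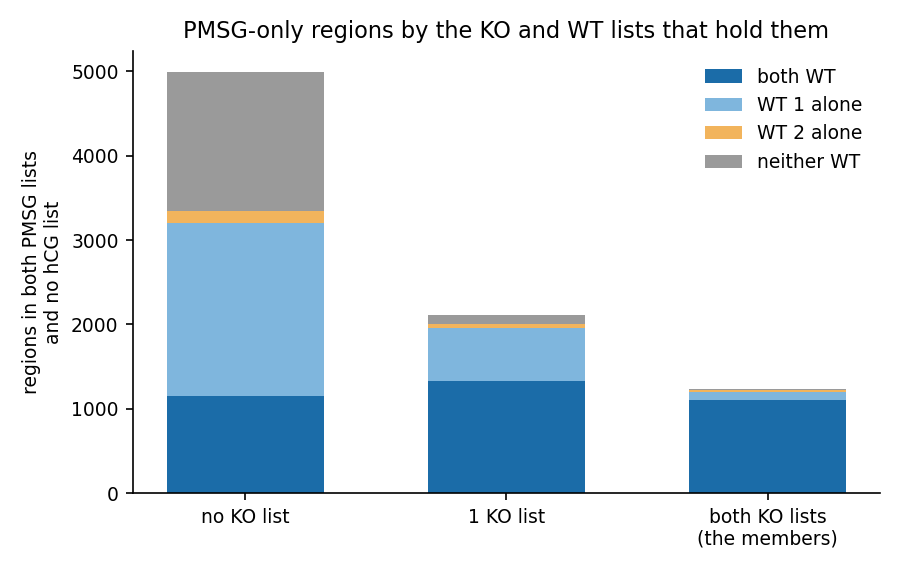
Number of regions held by both PMSG and no hCG lists (vertical axis), in bars for regions in no KO list, in 1 KO list and in both KO lists, with colours for the WT lists that held them. The bar of the members holds 1233 regions, of which 1103 were in both WT lists and 14 in neither.

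The share of PMSG-only regions that a library held was compared between genotypes, because no KO or WT call enters the rule for those regions. Intervals of the KO and WT lists did enter the merge, so they can widen or join regions. What this changed in the set was not tested. With all peaks, KO replicate 1 held 20.8% and KO replicate 2 34.1% of the 8338 regions, while WT replicate 1 held 76.2% and WT replicate 2 45.6%. Both WT libraries lay above both KO libraries, with a mean of 60.9% (SD 21.7, n = 2) against 27.5% (SD 9.46, n = 2). The difference of KO minus WT was -33.4 percentage points (exact two-sided permutation p = 0.3333, the smallest that 2 against 2 libraries allow). Without WT replicate 1 it was -18.1 points. With the 55654 peaks of highest fold from every list there were 10074 PMSG-only regions, and the order changed. KO replicate 1 then held 27.8% and KO replicate 2 44.6%, against 41.4% in WT replicate 1 and 15.5% in WT replicate 2, and the genotypes overlapped. The difference of KO minus WT became 7.71 percentage points (exact permutation p = 0.667), smaller than the SD over the 2 libraries of either genotype (11.9 in KO and 18.3 in WT). The same libraries differed in the opposite regions too: with all peaks, KO replicate 1 held 62.9%, KO replicate 2 44.3%, WT replicate 1 79.7% and WT replicate 2 91.2% of the 14212 regions held by both hCG and no PMSG lists.

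**Figure D2:**
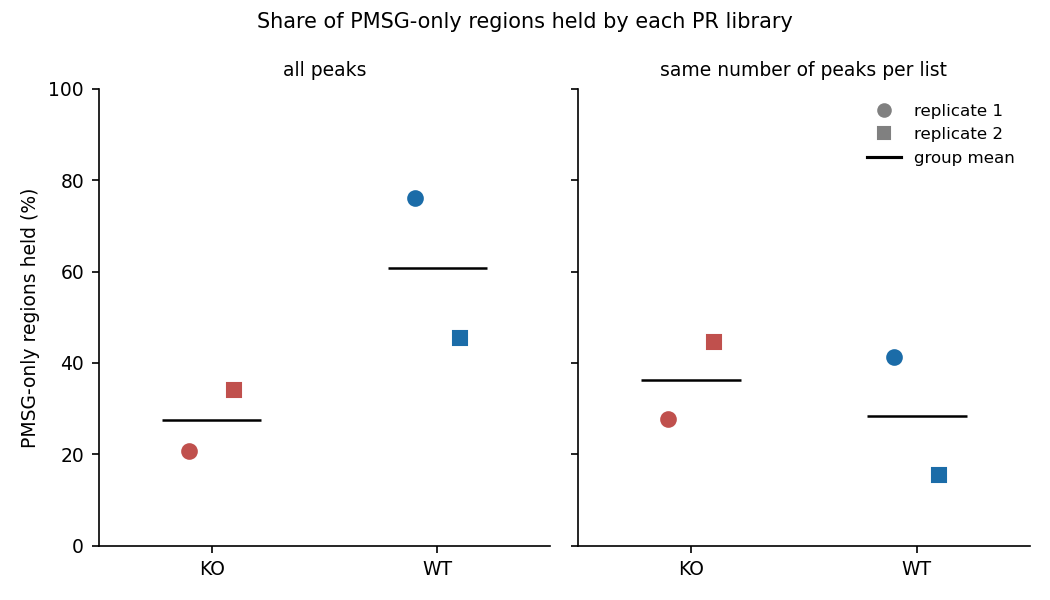
Percent of PMSG-only regions held by each KO and WT library (vertical axis), with all peaks on the left and with the same number of peaks from every list on the right. Circles are replicate 1, squares replicate 2 and lines the mean of 2 libraries. WT lies above KO on the left (45.6% or more against 34.1% or less), and the genotypes overlap on the right.

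Shorter, equal lists also changed which regions met the rule. They gave 2237 members in place of 1233, of which WT replicate 1 held 60.1% and WT replicate 2 35.3%, and 802 (35.9%) were in neither WT list. Of those 802, 790 had a peak in a full WT list, and of the 2237, 1202 (53.7%) had a peak in a full hCG list.

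The 14 members that both WT lists lacked were weak peaks. Their median fold was 6.65 in PMSG replicate 1, 6.78 in PMSG replicate 2, 4.22 in KO replicate 1 and 4.45 in KO replicate 2. Ranked by fold within each list, where 100 is the strongest peak, their medians stood at percentiles 25.5, 25.1, 8.55 and 10.5 in the same order. Inside a protein-coding gene were 8 of them, and none had its midpoint 1 kb or less from where such a gene starts or ends. The best ranked was at chr14:109937188-109937673, 809.9 kb from the nearest gene end, that of Slitrk6, a neuronal membrane protein, with folds of 9.69 and 9.82 in PMSG and 5.01 and 4.74 in KO. Its rank was 53.7 and 52.4 in the PMSG lists and 15.6 and 14.0 in the KO lists, so it stood near the middle of the former and low in the latter. The next lay at chr14:89704105-89704518, 1233 kb from the nearest gene end, that of Pcdh20, a protocadherin, with folds of 8.43 and 9.01 in PMSG and 4.16 and 4.62 in KO. The third, at chr16:8795833-8796214, was nearest to 1810013L24Rik (34.1 kb), with folds of 8.38 and 8.06 in PMSG and 4.65 and 4.74 in KO.

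Others of the 14 lay inside genes. The member inside Stxbp6, which encodes a regulator of membrane fusion, had folds of 7.97 and 8.60 in PMSG and 2.88 and 4.41 in KO. That inside Robo1, the receptor of Slit guidance proteins, was at chr16:72955297-72955704, with folds of 6.40 and 5.96 in PMSG and 4.16 and 4.62 in KO. The members inside Adgrv1, Phtf2, Tbc1d19, Dhx32, Cobll1 and Maco1 had KO folds between 2.40 and 4.59. The remaining members, nearest to Fbxo33, 1700129C05Rik and Synpo2, lay outside protein-coding genes. The region near Fbxo33 had the highest fold of the 14 in KO replicate 2, at 6.45.

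As a whole, the members ranked below the middle of their lists by fold. Their median rank percentile was 41.9 (quartiles 22.9 and 63.5) in PMSG replicate 1 and 42.6 (22.9 and 64.7) in PMSG replicate 2. In KO it was 18.7 (9.05 and 32.9) in replicate 1 and 27.6 (12.5 and 44.2) in replicate 2, and in WT, whose lists are longer, it was 46.6 (26.2 and 64.9) in replicate 1 and 30.6 (14.3 and 45.7) in replicate 2. The members thus stood lower in the KO lists than in the PMSG lists, which are of similar length. All PMSG-only regions did so too, with medians of 33.8 and 35.0 in PMSG and, for those held, 16.8 and 22.9 in KO. In all 4 of the PMSG and KO lists, 48 members ranked above percentile 50 and 610 (49.5%) ranked below it. Since the PMSG, KO and hCG calls chose the members, these ranks are descriptions.

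**Figure D3:**
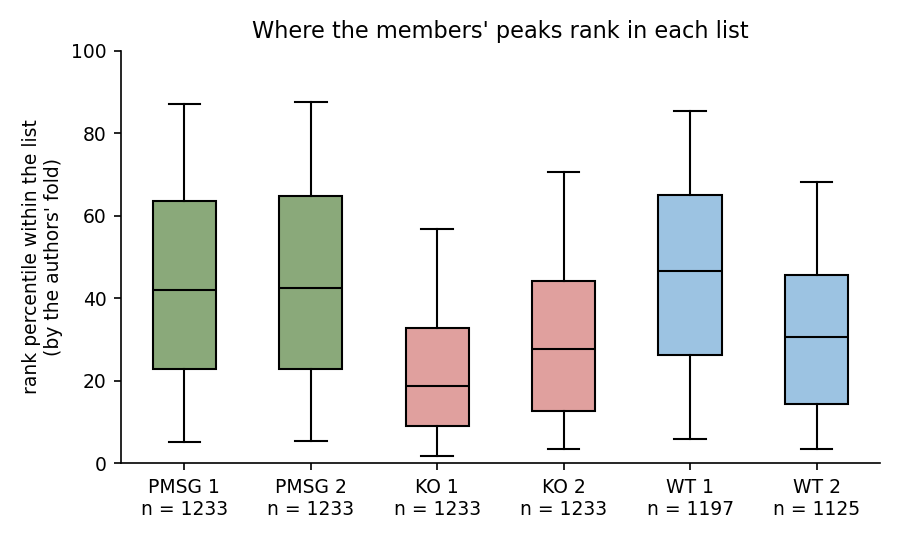
Rank percentile of the members' peaks within each list (vertical axis, 100 is the highest fold), for the PMSG, KO and WT libraries. Boxes span the quartiles with the median as a line, and whiskers reach the percentiles 5 and 95; the lowest median is that of KO replicate 1 (18.7) and the highest that of WT replicate 1 (46.6).

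For most members the summits of different lists lay close together. The median distance between summits was 13 bp between the PMSG replicates and 25 bp between the KO replicates, with 94.2% and 83.5% of members within 100 bp. Between PMSG and KO libraries it was 23 to 26 bp, and between 82.5% and 88.2% of members had PMSG and KO summits within 100 bp of each other. Between PMSG replicate 1 and WT replicate 1 the median distance was 16 bp over 1197 members. The fold of a member correlated between the PMSG replicates with a Spearman coefficient of 0.894, and between the KO replicates with 0.638 (1233 members each). Between PMSG replicate 1 and KO replicate 2 the coefficient was 0.635, and with KO replicate 1 it was 0.487. Between PMSG replicate 1 and the WT libraries it was 0.728 for WT replicate 1 and 0.485 for WT replicate 2. These correlations run across regions that share libraries and are given without a test.

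Members were mostly distal. The midpoint of 34 of 1233 members (2.76%, Wilson 95% interval 1.98 to 3.83) was 1 kb or less from the start or end of a protein-coding gene, against 14.4% of all merged regions (14.2 to 14.6). With equal lists the members' share was 6.88%. The share was 2.82% (2.48 to 3.20) over all PMSG-only regions, 2.18% (1.58 to 3.01) for the 1650 that no hCG, KO or WT list held, and 3.48% (2.56 to 4.70) for the 1150 that both WT and no KO lists held. Their median distance to a gene end was 35.7 kb, against 38.1 kb in the 1650 regions, 22.9 kb in the 1150 regions and 17.7 kb in all merged regions. Members inside a protein-coding gene numbered 631 (51.2%, 48.4 to 54.0), against 60.1% of all merged regions and 53.0% (51.9 to 54.0) of all PMSG-only regions. It was 49.5% (47.1 to 51.9) in the 1650 regions and 59.2% (56.4 to 62.0) in the 1150 regions. No test was made of these differences. Exons and introns were not told apart.

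Members had a median width of 510 bp (quartiles 389 and 666), against 352 bp over all PMSG-only regions and 459 bp over all merged regions. The 5891 regions held by both hCG and both KO but no PMSG lists had a median of 519 bp (389 and 687). A merged region widens with every list that adds a peak to it, so width follows in part from the rule. The nearest hCG peak lay at a median of 5.53 kb from a member, and 50 members (4.06%) had one within 500 bp. Members were spread over all 20 chromosomes used, from 31 on X to 111 on chromosome 1, and the median gap between neighbouring members was 1156 kb, with 31 gaps under 20 kb.

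**Figure D4:**
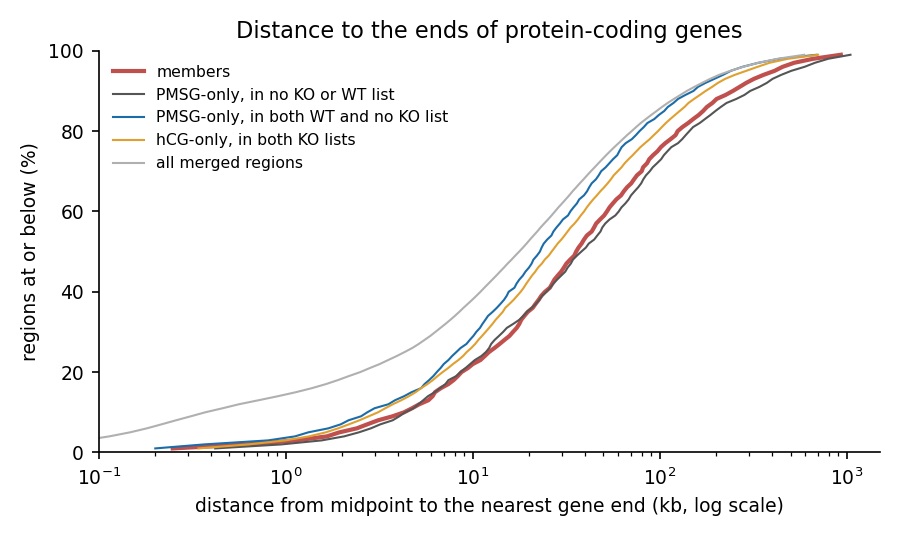
Cumulative percent of regions (vertical axis) by distance from the midpoint to the closest gene boundary, protein-coding genes only (horizontal axis, kb, log scale), for the members, 3 compared sets and all merged regions. The members' median is 35.7 kb and that of all merged regions 17.7 kb.

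Most genes with a member had 1 of them. Of 21631 protein-coding genes, 915 had a member in the gene or within 20 kb of it; 825 of these had 1, 74 had 2 and 16 had 3 or more. These counts are given without the same counts for other regions. Robo1 had 5 members among 59 merged regions (9 PMSG-only). Mbnl1, a regulator of RNA splicing, had 4 among 25 (5 PMSG-only). Genes with 3 were Arhgap15, Arhgap32, Bmpr1b, a type I receptor of bone morphogenetic proteins (BMPs), Fbxl17, an adaptor of a ubiquitin ligase, Frmd5, Kcnq5, a potassium channel subunit, Nfia, a transcription factor, Rbms1, Sema5a, a guidance protein, Tbc1d19, Tenm4, Tshz2, Ttll5 and Zfp618. Their lengths ran from 99.7 kb (Tbc1d19) to 1020.0 kb (Robo1), and the part of gene length in these counts was not tested. At Tbc1d19, 3 of 8 merged regions and 3 of 4 PMSG-only regions were members. At Tenm4 it was 3 of 70 merged regions and 3 of 8 PMSG-only regions. Members were 1.26% of all merged regions and 14.8% of PMSG-only regions, and these genes were picked for their counts. With equal lists the count was 1 at Tenm4, 1 at Rbms1 and 6 at Nfia.

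Within Robo1 the 5 members did not look alike. The one at chr16:72614888-72615365 had the highest mean rank over the PMSG and KO lists, with folds of 11.7 and 12.8 in PMSG, 10.3 and 7.42 in KO and 13.5 and 14.6 in WT. That at chr16:72239691-72240070 had folds of 12.5 and 12.1 in PMSG, 4.10 and 4.80 in KO and 4.68 in WT replicate 1, and WT replicate 2 lacked it. It ranked at percentiles 72.8 and 68.7 in the PMSG lists and at 7.53 and 14.8 in the KO lists, so it stood above the middle of the former and low in the latter. The members at chr16:72444058-72444709 and chr16:72721730-72722270 had a peak in all 6 lists with folds between 3.91 and 7.65. The 5th is the region inside Robo1 that both WT lists lacked. Robo1 also had 1 PMSG-only region that no list after hCG held.

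At Mbnl1 the member of highest mean rank of the 4, chr3:60535160-60535697, had folds of 11.1 and 12.9 in PMSG, 4.43 and 7.90 in KO, and 9.31 and 5.76 in WT. The member at chr3:60563351-60563988 had folds of 5.08 and 4.99 in PMSG, 5.39 and 5.69 in KO, and 5.13 and 4.27 in WT. It ranked at percentiles 9.73 and 8.40 in the PMSG lists and 19.5 and 26.6 in the KO lists. At Arhgap32 the member at chr9:32193221-32193668 ranked high, with folds of 16.2 and 17.0 in PMSG, 8.97 and 10.4 in KO, and 11.6 and 9.73 in WT.

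Genes known for granulosa function before the LH surge were examined as a list of 20. Around them lay 6 members among 320 merged regions (1.88%, beside 1.26% over all regions), at Bmpr1b, Nr5a2 and Fshr, and the other 17 genes had none. Of the 38 PMSG-only regions there, the 6 members were 15.8%, beside 14.8% over all PMSG-only regions. Bmpr1b transmits BMP signals in granulosa cells. Its first member, at chr3:141874829-141875440, had folds of 6.98 and 6.65 in PMSG, 6.55 and 5.58 in KO, and 5.92 and 6.30 in WT. The second, at chr3:142080701-142081090, had 7.20 and 7.60 in PMSG, 4.56 and 6.90 in KO, and 6.17 and 5.26 in WT, and the third, at chr3:142088497-142089417, had folds between 2.62 and 4.45 in the 6 lists. All 3 lay inside the gene and all were held by both WT libraries.

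Nr5a2 encodes an orphan nuclear receptor that granulosa cells need for ovulation. Its 2 members lay side by side inside the gene, at chr1:136937597-136938045 and chr1:136938656-136939297, and had folds between 2.09 and 2.96 and between 2.495 and 3.86 over the 6 lists. They were among the weakest peaks of every list by fold, at percentiles between 0.0638 and 5.48. Fshr encodes the receptor of follicle-stimulating hormone. Its member, at chr17:89145937-89146402 inside the gene, had folds of 3.97 and 3.98 in PMSG, 3.07 and 3.18 in KO, and 2.82 and 3.40 in WT. With equal lists the members at Nr5a2 and Fshr no longer met the rule, and at Bmpr1b the first 2 members met it and the third did not. The count of members around Bmpr1b from equal lists was still 3.

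Around the other lists members were few, as over all regions (1.26%). Around 17 LH-induced genes there were 2 among 192 merged regions (1.04%), 1 inside Runx1, a transcription factor, and 1 inside Sult1e1, which inactivates oestrogens by sulfation. The Runx1 member, at chr16:92605715-92606689, had folds of 3.49 and 3.17 in PMSG, 2.38 and 2.93 in KO, and 2.32 and 2.80 in WT. That in Sult1e1, at chr5:87582474-87582935, had 5.10 and 5.97 in PMSG, 3.09 and 4.27 in KO, and 4.39 and 3.91 in WT. With equal lists neither of these 2 regions met the rule, but 1 different region around Runx1 did. Around 21 genes of the Wnt, transforming growth factor beta (TGF-beta) and BMP pathways there were 2 among 220 (0.909%), both inside Tgfbr3, a co-receptor of TGF-beta and inhibin. The first, at chr5:107192218-107193413, had folds of 7.77 and 8.03 in PMSG, 3.32 and 4.29 in KO, and 5.54 and 3.77 in WT, and with equal lists neither Tgfbr3 region met the rule. No member lay around the 13 PGR-dependent genes (142 merged regions, of which 4 were PMSG-only) or the 16 cell cycle genes (116 merged regions, of which 8 were PMSG-only). With members at 1.26% of all regions and 14.8% of PMSG-only regions, lists of this size cannot show a lack of members. Around the 4 endothelial markers there was 1 member among 34 merged regions (2.94%), of which 4 were PMSG-only. It lay inside Tek, a receptor of endothelial cells, and none lay at Pecam1, Cdh5 or Kdr. The theca, immune and oocyte markers had none among 38, 16 and 16 merged regions. The Tek member had folds of 7.39 and 6.14 in PMSG, 4.77 and 5.47 in KO, and 6.93 and 6.05 in WT.

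**Figure D5:**
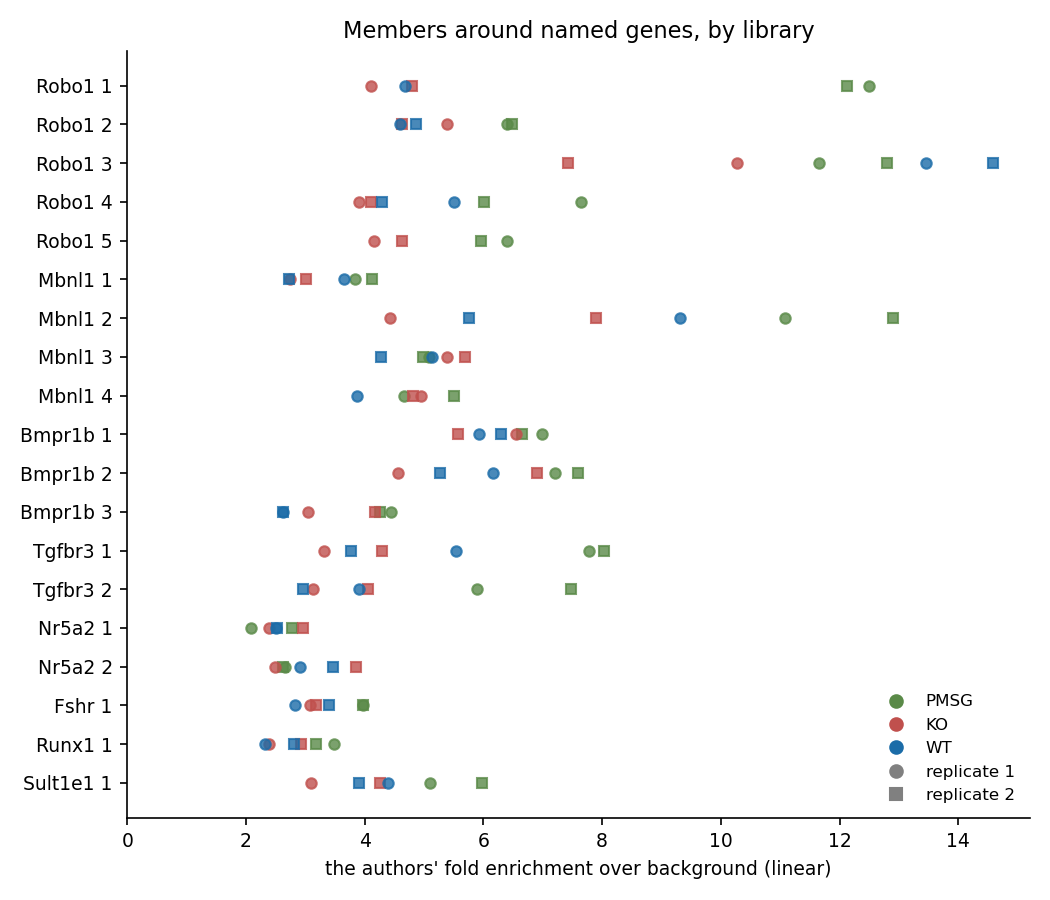
The authors' fold of the members around 8 named genes (rows, numbered in order of position) in the PMSG, KO and WT libraries, on a linear axis, with circles for replicate 1 and squares for replicate 2. Fold belongs to its own list and levels cannot be compared between lists; a missing symbol means no peak, as for both WT libraries at the fifth Robo1 member.

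The 10 members of highest mean rank over the PMSG and KO lists were all held by both WT libraries. The first, at chr3:10750039-10750603, lay outside genes, 310.2 kb from the nearest gene end, that of Snx16, a sorting nexin of endosomes. Its fold was 18.2 and 20.9 in PMSG, 12.2 and 13.4 in KO, and 18.03 and 18.1 in WT, which placed it at percentile 80.1 or higher in all 6 lists. The second, at chr1:186855532-186856058, was nearest to Rrp15 (106 kb), with folds of 19.5 and 18.004 in PMSG, 12.8 and 12.4 in KO, and 19.3 and 13.3 in WT. The third, at chr19:44373079-44373372, lay 21.2 kb from the end of Scd1, which encodes a fatty acid desaturase, with folds of 16.6 and 17.5, 11.3 and 14.4, and 10.6 and 11.2 in the same order. Others among the 10 lay inside Arhgap15 and Ror1, a receptor of Wnt proteins, and nearest to Zeb1, Pkdcc, Lratd1, Fgg and Toporsl. At Lratd1 and Toporsl, unlike at the other 8, both KO ranks stood above both PMSG ranks. At Fgg the rank in KO replicate 1 (88.4) lay between those in PMSG replicate 1 (89.4) and PMSG replicate 2 (85.8). The region near Lratd1, chr12:14109515-14110066, ranked at percentiles 98.2 and 99.1 in the KO lists, 95.8 in both WT lists, and 71.3 and 71.5 in the PMSG lists. The region near Toporsl, chr4:52693508-52694310, ranked at 87.2 and 92.2 in KO, 96.3 and 95.6 in WT, and 75.4 and 73.3 in PMSG.

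At the edge of the rule, membership rested on a peak just above the lowest value in the lists. No list held a peak with a −log10 q under 10. The members with the lowest −log10 q among the PMSG and KO lists were at chr6:119409839-119410179 inside Adipor2 (10.027 in KO replicate 1), at chr13:63330666-63331650 inside Fancc (10.0291 in KO replicate 2) and at chr13:107340969-107341450 outside genes (10.0321 in PMSG replicate 2). Regions kept out by 1 weak hCG peak lay at chr12:100711045-100711684 inside Rps6ka5 (10.0273 in hCG replicate 2), at chr14:20775201-20776303 inside Camk2g (10.0581 in hCG replicate 1) and at chr9:50505561-50506112 near Plet1 (10.138 in hCG replicate 1). All 3 of the latter had peaks in both WT lists.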

How the data were processed

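The material was 8 ATAC-seq libraries of mouse granulosa cells. Per the submitters' processing notes, Bowtie2 and MACS2 were used with the mm10 build; versions, filters and any shift of reads for the Tn5 cut are not given in the sources used here. For every library the authors deposited a narrowPeak list, which has 10 columns and no header line. Column 7 of the deposited lists was read as a linear ratio, the fold enrichment of a summit over background. The 2 columns after it in the deposited lists were read as −log10 p-values and −log10 q-values. The deposited score column was left out, and the summit offset was used.

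Where an interval is listed once per summit, it entered as 1 peak with its highest fold and −log10 q. Intervals on chromosomes 1 to 19 and X were merged at 1 bp of overlap. Gene ends came from 21631 protein-coding genes of a RefSeq table of GRCm38.p6, and 32619 promoter windows and the microRNA sequences came from RefSeq tables of the same assembly. Coordinates count from 1. The merging and counting were tested on simulated lists with known patterns, under Python 3.11.15, numpy 2.4.6, pandas 2.3.3 and scipy 1.17.1. Depth is unknown, and intervals (Wilson, 95%) cover counting error only.

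The rule, the gene lists and the motifs were chosen with earlier results of these data known. Named regions were the 10 members of best mean rank, all members in neither WT list, members within 20 kb of a listed gene, the 10 genes with the most members (genes tied at 3 were named too), and the 3 members nearest the limit of −log10 q. The 16 members that hold an annotated start were added after the values were seen. Motifs were to be counted around summits. No genome was used here, so they were counted in promoter windows, and the windows printed were chosen after their values were seen. The tests were an exact permutation over libraries, repeated under alternative settings, and an exact sign-flip over same-numbered KO and WT libraries. Nothing in the sources ties the libraries' mouse pools across groups.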

Additional observations from a re-analysis of the deposited data

How the results depend on the processing

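The number of members was 1233 in the report, stayed within 1.5 times of it under 4 alternatives, and moved to 2237 with the same number of peaks from every list. Leaving out 1 library at a time gave between 1346 and 2847 members, the highest without KO replicate 1. The share held by WT replicate 1 (97.1%) was 60.1% with equal lists, 67.7% with only the WT lists shortened (an alternative chosen after seeing the data), 93.4% when peaks had to cover 50% of a region and 98.5% with −log10 q of 20 or more; leaving out libraries gave 94.8 to 98.0%. For WT replicate 2 (91.2%) the same settings gave 35.3%, 39.7%, 80.7% and 93.1%, and leaving out libraries 75.6 to 94.3%. The difference of KO minus WT in the share of PMSG-only regions held was -33.4 percentage points and reversed to 7.71 with equal lists. It was negative under the other settings, including every library left out (-48.8 to -18.1). The gene-end share of members (2.76%) was 6.88% with equal lists, 6.41% at 2.5 kb, and 2.63 to 3.71% with libraries left out. Members around listed genes numbered 10, 13 with a flank of 50 kb and 23 with equal lists. Of 82 regions (those chosen by the naming rule and the 16 members that hold a start), 59 met the whole rule with equal lists, 30 with −log10 q of 20 or more and 38 with 50% coverage. The cause of these changes was not tested, apart from the list length that the settings themselves change.

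Deviations of same-numbered KO and WT libraries from their group means correlated at -0.0300 over 91017 regions. With 2 libraries per group, this value cannot show whether the replicate numbers pair the libraries. With the replicate block the difference of KO minus WT was the same -33.4 points (exact sign-flip p = 0.5, the smallest that 2 pairs allow). Motif shares around summits were not run. Depth behind the lists is unknown, which limits every statement on an absent peak.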

Other observations

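Set beside all PMSG-only regions, of which members made up 14.8%, the share of members by chromosome ran from 9.87% on X (31 of 314) to 19.5% on chromosome 16 (67 of 344). X held 2.51% of the members, 3.77% of PMSG-only regions and 2.63% of all merged regions. Chromosome 16 carries Robo1, with 5 of the 67. Within 10 Mb of Pgr, 4 of 31 PMSG-only regions were members. These shares were not tested.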
